A study of Caenorhabditis elegans with 15 samples.

Results

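This account describes 5 libraries of Caenorhabditis elegans that overexpress an active form of the secreted phosphatase ACP7, set against all 10 libraries of the series that lack the added activity. The members were taken by genotype: the 5 ACP7 OE libraries on one side, and the 5 wild-type and 5 ACP7-7A OE libraries pooled on the other, which makes up all 15 libraries. ACP7 OE is strain ABR275, in which F21A3.11, the gene for ACP7, is driven by the promoter of ges-1, an esterase gene of the intestine, and is followed by SL2 trans-spliced WormScarlet, a red fluorescent reporter, and the unc-54 3 prime untranslated region. ACP7-7A OE is strain ABR484 with the same construct encoding a catalytically dead ACP7, and wild type is N2. Each construct is represented by a single strain, about 1000 whole worms went into a library, and the labels state neither the age of the worms nor whether replicates are separate cultures. P-values therefore measure the spread between these libraries, which may be in part technical.

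Acid phosphatases remove phosphate groups from proteins, nucleotides and lipids, often in lysosomes or outside the cell. In human, the name ACP7 belongs to a purple acid phosphatase, an enzyme that works with metal ions at its active site. The worm intestine is at once the organ of digestion, of fat and yolk production and of much of the defence against ingested microbes. It releases proteases, lysozymes and lectins into the gut lumen and other proteins into the body cavity. The comparison asks which transcripts of the whole animal differ when the added enzyme is active, with the dead form as a control for the construct.

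Library totals ran from 39050495 to 58077047 counts, with 17186 to 18610 genes detected in each. F21A3.11 served as the check of the labels: it stood at 12.96 to 16.6 counts per 1000000 counts (CPM, scaled by TMM) in wild type, 576 to 645 CPM with active ACP7 and 1072 to 1549 CPM with the dead form. Transgene RNA was thus higher in ACP7-7A OE than in ACP7 OE, and the constructs differed in RNA dose besides activity. WormScarlet was at 798 to 964 CPM in the active and 1580 to 2359 CPM in the dead strain, and wild type had no count. Of the genes the construct borrows from, ges-1 had 39.3 to 51.9 CPM in ACP7 OE and 33.4 to 47.1 CPM in the pooled controls, and unc-54 stood at 908 to 1445 CPM and 968 to 2441 CPM. Neither passed the test (edgeR adjusted p = 0.34 and 0.26). Wild-type library 5 and ACP7-7A OE libraries 1 and 2 stood apart from others of their groups, with fewer counts in sperm or muscle genes. List counts that move by more than 1.5 times without them are given both ways. Sperm and muscle genes set the 3 libraries apart, so counts without these libraries describe lists that vary with such genes and do not test them.

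In the ACP7 OE libraries a set of 124 genes, described below, rose from low levels, with control group means of at most 0.597 CPM. Of these, 25 had no count in any control. Others were already detected there, such as clec-125 at 0.289 to 1.25 CPM in the controls. Against the pooled controls, 8 of 25 tested proteases, 3 of 10 lysozymes and the glucuronosyltransferase gene ugt-64 rose. Of the 25 proteases, 3 rose against wild type alone and 12 against ACP7-7A OE alone. Among all 15723 genes tested, 231 rose against wild type alone and 752 against ACP7-7A OE alone. Of the 12 tested protein genes of the mitochondrial DNA 6 fell, as did lam-1 and lam-2, which encode laminin chains, and a few genes in small chromosomal groups. Of 15723 genes tested, 471 differed between ACP7 OE and the pooled controls (edgeR quasi-likelihood F test, Benjamini-Hochberg adjusted p under 0.05), which is 3.00%. Of these, 261 were higher (1.66% of all tested) and 210 lower (1.34%). The 5 ACP7 OE libraries lay wholly above the 10 controls for 178 of the 261 higher genes and wholly below them for 86 of the 210 lower genes, against 1.33% and 0.674% of all genes tested. A stricter test asked for a difference from wild type and from ACP7-7A OE at once, and 188 genes passed it (1.20%), 126 higher (0.801%) and 62 lower (0.394%). At an unadjusted p under 0.05 the pooled test gave 2613 genes, and the median log2 fold change of all genes tested was -0.01.

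The higher genes changed by more than the lower ones and from lower levels. Of the higher genes, 124 had a log2 fold change of at least 2, 69 lay between 1 and 2, 21 between 0.5 and 1, and 47 were under 0.5. Of the lower genes only 3 reached 2 in size, C38D9.2, F56A4.3 and irld-35, and 141 were under 0.5. The mean over all libraries was under 1 CPM for 125 of the higher genes and, among the lower genes, for mct-1 alone. Single libraries weighed on the counts: without ACP7 OE library 4 the total was 302, with 172 higher and 130 lower, and without library 3 it was 308, with 102 lower. Without ACP7 OE library 2 the lower genes came to 128. Leaving out the 3 libraries that stood apart gave 1479 genes of 16254 tested, 516 higher and 963 lower. List counts given for that setting stand against these larger totals. The plot of all genes tested shows the higher genes of low mean CPM as a fan at the left.

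**Figure D1:**
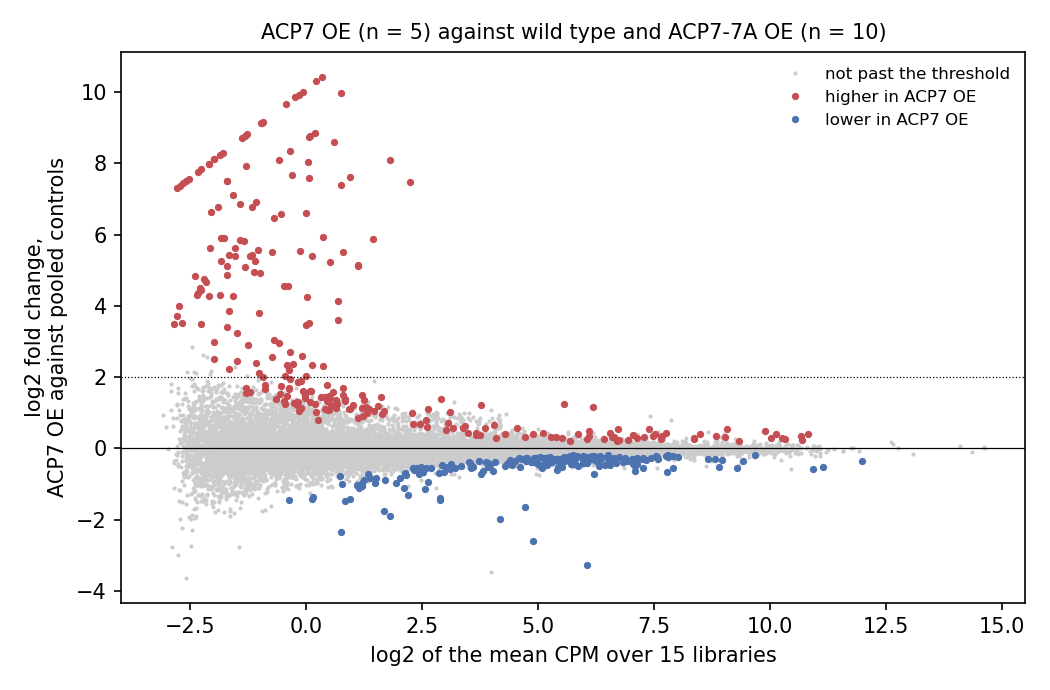
Log2 fold change of ACP7 OE against the pooled controls (vertical axis) against the log2 of the mean CPM over 15 libraries (horizontal axis), 1 point per gene tested. Red and blue points are the 261 higher and 210 lower genes, grey points did not pass, and the dotted line marks a log2 fold change of 2, above which lie 124 of the higher genes.

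The 124 genes with a log2 fold change of at least 2 are described first. They were chosen by that value, so what follows on them is a description and carries no test beyond each gene's own. Together they summed to 313, 159, 259, 220 and 241 CPM in ACP7 OE libraries 1 to 5 and to between 7.52 and 12.9 CPM in the controls. No control group had a mean above 0.597 CPM for any of them. Of the 124, 25 had no count in any of the 10 controls and entered the test through ACP7 OE alone. Most others were near 0 in the controls and passed the filter on low counts mainly through ACP7 OE. The means in ACP7 OE were low as well, from 0.355 to 14.04 CPM with a median of 1.26, and 50 of the 124 were under 1 CPM. All 5 ACP7 OE libraries lay above all 10 controls for 116 of the 124, and 103 passed the test against both control groups.

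F59B2.12, on chromosome III (9017601 to 9020965, WBcel235, plus strand), had the highest level of the set. It stood at 13.9, 8.86, 16.6, 14.7 and 16.13 CPM in ACP7 OE and at 0 to 0.364 CPM (median 0.0202) in the controls. Every ACP7 OE library lay far above the highest control, and the log2 fold change, given with its standard error (SE), was 7.48 ± 0.52 (edgeR adjusted p = 9.5e-08). clec-197, a C-type lectin gene on chromosome IV (17345553 to 17346699), had 13.9, 6.78, 10.6, 11.9 and 8.79 CPM in ACP7 OE against 0 to 0.283 CPM (median 0) in the controls (log2 fold change 8.09 ± 0.56, adjusted p = 6.8e-08). The groups again did not overlap, and only ACP7-7A OE libraries held the gene among the controls. F26D2.16, on chromosome V (16418350 to 16419869), had 11.3, 4.5, 9.23, 7.24 and 7.09 CPM against 0 to 0.301 CPM (median 0.10) (log2 fold change 5.88 ± 0.44, adjusted p = 4.4e-08). ACP7 OE library 2 was the lowest of the 5 for each of these genes, as it was for the sum of the set, and still lay well clear of the controls.

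C-type lectins, carbohydrate-binding proteins of which many are secreted, were the largest named family, with 27 of the 124 genes. Over the whole list of 148 lectin genes tested, 33 rose, 4 fell (clec-209, clec-266, clec-160 and clec-264, named to complete the count) and 111 did not pass, against 1.66% and 1.34% of all genes tested, with a median log2 fold change of 0.28. Against both control groups 27 rose and 2 fell. Without the 3 libraries that stood apart 41 of 159 rose and 8 fell. Of the 148, 4 had no count in any control, and others near 0 there passed the filter on low counts mainly through ACP7 OE. With no filter 42 of 244 rose and 4 fell. clec-94 (chromosome I, 11146448 to 11148318) had 6.0, 2.76, 4.73, 5.61 and 6.04 CPM in ACP7 OE and a single count among the 10 controls, a ratio of 2262 (exact 95% interval 405 to 89420, counting error only). clec-95, the next gene, had 3.3, 1.55, 2.95, 2.91 and 1.35 CPM against 0 to 0.0482 CPM (median 0) in the controls (log2 fold change 7.68 ± 0.53, adjusted p = 1.2e-09), and clec-96, beside it, rose too. clec-207 and clec-208 are another adjacent pair, on chromosome V from 2096072 to 2099158. clec-207 had 4.05, 2.83, 3.12, 3.43 and 2.4 CPM and 2 counts in all controls, and clec-208 5.68, 1.91, 5.99, 4.63 and 4.57 CPM and 4 counts. Neither pair overlapped with the controls in any library. clec-137, named after its values were seen, had no count in any control and 847 in ACP7 OE, at least 533-fold higher against a floor of 3 counts over the controls. Mates of a read pair appear to have been counted separately, so such bounds are too high and intervals too narrow.

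Proteases and signalling peptides formed a smaller share of the set. Of 14 trypsin-like try genes tested 4 rose: try-8, try-13, try-11 and try-9, the last of them lost without any of 5 single libraries (adjusted p up to 0.17). The higher share of all genes tested was 1.66%. try-8 (chromosome V, 7452912 to 7454336, minus strand) had 8.78, 3.05, 6.21, 5.8 and 6.99 CPM in ACP7 OE and 0 to 0.413 CPM (median 0.167) in the controls (log2 fold change 5.13 ± 0.45, adjusted p = 4.0e-07). It overlaps try-11 on the other strand, and reads of the pair cannot be told apart without strand. try-13, nearby on chromosome V, had 5.66, 2.62, 4.31, 4.22 and 4.79 CPM against 0 to 0.456 CPM (median 0.285) (log2 fold change 4.14 ± 0.52, adjusted p = 5.9e-05), with no overlap. ins-31 encodes an insulin-like peptide, one of a family of ligands that act on or block the worm's insulin receptor DAF-2. It had 7.1, 3.63, 5.24, 4.61 and 4.4 CPM in ACP7 OE and 0 to 0.101 CPM (median 0) in the controls (log2 fold change 7.40 ± 0.48, adjusted p = 7.2e-10), while no other member of the 22 tested insulin-like genes passed. Y51A2D.8, with 9.82, 3.87, 6.17, 4.54 and 6.17 CPM against 0 to 0.62 CPM (median 0.117), showed the same pattern on chromosome V (log2 fold change 5.15 ± 0.48, adjusted p = 1.2e-06).

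Several of the 124 genes lay side by side. Among the tested genes in chromosomal order, 61 of the 261 higher genes formed 27 runs of neighbours that moved the same way, and 45 of the 124 were in such a run. The longest runs held 4 genes, K12H6.4, K12H6.9, K12H6.5 and K12H6.8 on chromosome II from 2823707 to 2828605, and C16C8.19, C16C8.7, C16C8.9 and Y49F6B.20 further along the same chromosome. These runs were named after their values were seen. K12H6.4 had 3.51, 2.81, 3.92, 4.63 and 4.25 CPM in ACP7 OE and no count in any control, at least 567-fold higher. The other runs included lectins (clec-136 to clec-138), srlf-17 and srlf-18, the astacin protease genes nas-17 and nas-19, and the secreted-protein genes scl-7 and scl-8. Neighbours of one family can share reads where their sequences are alike, and such counts are uncertain. Other named families among the 124 included 5 of 19 tested fipr genes, 4 of 17 srlf, 3 of 30 nas and 3 of 9 scl genes. The whole set was 124 of 15723 genes tested. Other genes with family names were also present, and 70 genes bore only a sequence name. By chromosome the set had 35 of 2816 tested genes on II, 29 of 3100 on V and 19 of 2518 on I. It had 17 of 2400 on III, 17 of 2636 on IV and 7 of 2239 on X.

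**Figure D2:**
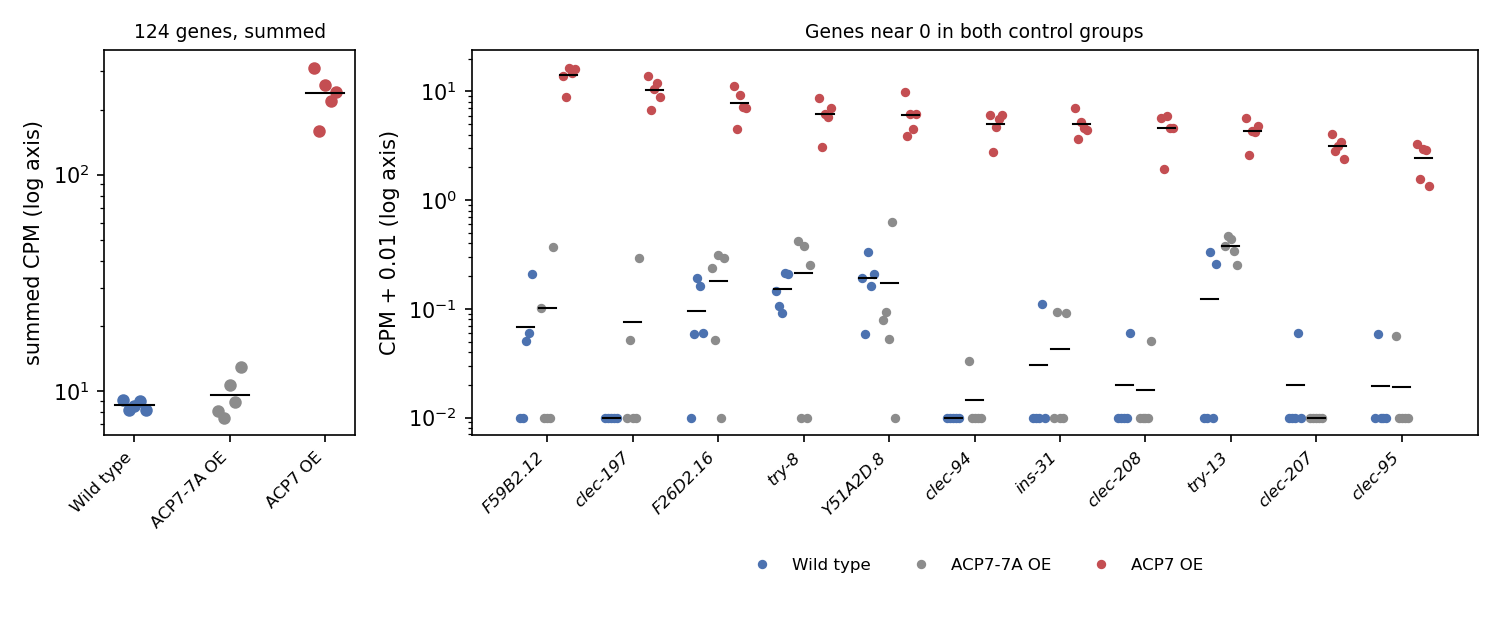
Left, the summed CPM (log axis) of the 124 genes with a log2 fold change of at least 2; right, CPM + 0.01 (log axis) of 11 of them. Each point is a library (5 per group) and each line a group mean. ACP7 OE sums lie between 159 and 313 CPM and all control sums between 7.52 and 12.9 CPM.

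Markers of males and of sperm were set beside these 124 genes. The 14 male genes summed to 4.96 to 5.82 CPM in ACP7 OE, 3.296 to 4.95 CPM in ACP7-7A OE and 2.62 to 5.15 CPM in wild type. The ranges of ACP7 OE and wild type overlapped through wild-type library 5 alone, at 5.15 CPM. Wild-type libraries 1 to 4 had 2.62 to 4.02 CPM, and every ACP7 OE sum lay above every ACP7-7A OE sum. Of the 14, 8 were deep enough to be tested, 0 rose and 0 fell, with a median log2 fold change of 0.30. Among these 8, 7 had a positive and 1 a negative log2 fold change. With no filter on low counts all 14 were tested, 1 rose and 0 fell, and the median was 0.86. cwp-1, a gene of male sensory neurons, had no count in all 10 controls and 0.179, 0, 0.194, 0.171 and 0.200 CPM in ACP7 OE libraries 1 to 5. cwp-3 was at 0 in all controls and had 0.145 CPM in ACP7 OE library 2 alone, while plg-1, needed for the male mating plug, had 1.20 to 2.66 CPM in ACP7 OE and 1.13 to 2.59 CPM in wild type. try-5 had 0.339 to 0.970 CPM in ACP7 OE and 0.0493 to 0.654 CPM in the controls. mab-3 had 0.310 to 1.29 CPM and 0.14 to 0.986 CPM, and both genes overlapped. The part of male transcripts in the 124 genes was not tested.

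A few sperm genes passed the test, and the controls spread widely. The sperm protein and peptide genes summed to 482 to 724 CPM in ACP7 OE and 263 to 406 CPM in wild type, while ACP7-7A OE split into libraries 1 and 2, at 158 and 175 CPM, and libraries 3 to 5, at 511 to 565 CPM, within the range of ACP7 OE. Of 75 tested members of that list 5 rose (nspd-9, ssp-10, msp-65, msd-4 and ssp-16), 2 fell (nspc-4 and nspc-1) and 68 did not pass, against 1.66% and 1.34% of all genes, with a median log2 fold change of 0.78. Against both control groups 1 rose and 0 fell. With single libraries left out the higher count of the pooled test ran from 2 to 7 and the lower from 0 to 3. Without the 3 libraries that stood apart, 16 of 80 rose and 3 fell. ssp-16 and nspc-1 were named to complete the counts. msd-4, which encodes a protein with a major sperm protein domain, had 15.6, 10.6, 11.3, 13.4 and 13.2 CPM in ACP7 OE and 1.79 to 8.41 CPM (median 4.32) in the controls, without overlap (log2 fold change 1.39 ± 0.32, adjusted p = 0.025). Its call was lost without any of 4 ACP7 OE libraries (adjusted p up to 0.072). nspd-9 had 3.37, 1.45, 2.6, 1.63 and 0.949 CPM against 0.124 to 0.777 CPM (median 0.493) (log2 fold change 2.03 ± 0.37, adjusted p = 0.0016). Of 36 spermatogenesis genes 2 rose, spe-11 and spe-8, with a list median of 0.85, and both calls were lost without any of 7 or more single libraries (adjusted p up to 0.12 and 0.096). Neither passed the test against both control groups. The pooled count ran from 0 to 8 without single libraries and was 4 of 37 without the 3 libraries. Whole worms were sequenced, so more sperm and more RNA per sperm cannot be told apart.

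Among genes expressed well in every group, ugt-64 had the clearest rise. It encodes a UDP-glucuronosyltransferase, an enzyme class that couples sugars to small molecules so that they can be cleared, and lies on chromosome V (3503131 to 3505696). Its levels were 75.3, 78.5, 78.2, 70.9 and 78 CPM in ACP7 OE, 25, 30.5, 29, 32 and 28.9 CPM with the dead form and 34.4, 34.5, 33.4, 35.6 and 37.2 CPM in wild type. The 5 ACP7 OE libraries lay close together and far above every control, and the control groups did not overlap each other. The rise was 2.38-fold (log2 fold change 1.25 ± 0.07, adjusted p = 7.2e-11). Of 59 tested ugt genes 1 rose, 4 fell (ugt-30, ugt-41, ugt-4 and ugt-11, the last named to complete the count) and 54 did not pass, with a median of -0.03. The higher share is close to the 1.66% of all genes. The lower count, against 1.34% of all genes, was 0 without ACP7 OE library 3 and 13 of 60 without the 3 libraries that stood apart, where 2 rose. With all libraries, 1 ugt gene rose and 0 fell against both control groups.

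Some digestive enzymes of the gut lumen and lysosome passed the test, with small changes at high levels. Of 25 tested proteases 8 rose, 0 fell and 17 did not pass, against 1.66% of all genes higher, with a median log2 fold change of 0.23. Of the 8, asp-13 alone, a cathepsin D-like aspartic protease, differed from both control groups. cpr-9, a cathepsin B-like protease, had 1086, 1094, 1068, 1322 and 1283 CPM in ACP7 OE and 683 to 1002 CPM (median 854) in the controls, with no overlap (log2 fold change 0.48 ± 0.09, adjusted p = 0.0016). asp-13 had 404, 443, 423, 437 and 446 CPM, 293, 313, 288, 293 and 264 CPM with the dead form and 382, 388, 372, 348 and 308 CPM in wild type, so that wild type lay between the other groups (log2 fold change 0.41 ± 0.08, adjusted p = 0.0030). cpr-4, another cathepsin B-like gene, named after its values were seen, was the only one of the 188 genes beyond both groups that missed the pooled test. Its mean level was 326 CPM with active ACP7, 124 CPM with the dead form and 248 CPM in N2, with an adjusted p of 0.012 against both groups and 0.096 against the pool.

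The other proteases with lower adjusted p than 0.05 were cpr-6, asp-3, cpl-1, asp-6, asp-2 and asp-1 (asp-2 named to complete the count), with log2 fold changes from 0.23 to 0.40. cpr-6 had 1405, 1370, 1350, 1435 and 1431 CPM against 953 to 1332 CPM (median 1176) in the controls, without overlap (adjusted p = 0.017), and the gap to ACP7-7A OE was the larger one, at a log2 fold change of 0.42 against 0.18 from wild type. Single libraries decided this count. Without the 3 libraries that stood apart 8 of 26 rose and 2 fell. Without ACP7 OE library 4 or library 5 only 2 of the 25 passed, and cpr-6, asp-3, cpl-1 and asp-6 were lost in either case (adjusted p = 0.064, 0.10, 0.091 and 0.13 without library 4). asp-1, which is also the only member of the 18 intestine markers to rise, was lost without any of 11 single libraries (adjusted p up to 0.21). Intestine markers as a whole summed to 3840 to 4781 CPM in ACP7 OE, 2883 to 3580 CPM in ACP7-7A OE and 2877 to 4250 CPM in wild type, with 18 tested, 1 higher and 0 lower, or 0 and 0 without the 3 libraries. Against wild type alone 0 of the markers rose (median log2 fold change -0.02), and against ACP7-7A OE alone 3 rose (median 0.30). Among all 15723 genes tested, 261 rose against the pool, 231 against wild type alone and 752 against ACP7-7A OE alone. The part of gut content in the protease values was not tested.

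Of 10 tested lysozymes, enzymes that cut bacterial cell walls, 3 rose and 0 fell, with a median log2 fold change of 0.24. The higher share of all genes tested was 1.66%. Against both control groups 1 rose. lys-4 had 107, 106, 114, 127 and 121 CPM in ACP7 OE, 38.9, 55.4, 35.7, 34.9 and 34.3 CPM with the dead form and 70, 73.2, 70, 66 and 35.8 CPM in wild type. The rise was 2.24-fold against the pool (log2 fold change 1.16 ± 0.21, adjusted p = 0.0051), all ACP7 OE values lay above all controls, and wild-type library 5 was near the ACP7-7A OE level. lys-8 had 220.4, 229, 209.3, 270.4 and 258 CPM against 163 to 217 CPM (median 188) in the controls (log2 fold change 0.35 ± 0.07, adjusted p = 0.0050), with slight overlap, and it overlaps C17G10.13 on the other strand. ilys-5, of the invertebrate type, had an adjusted p of 0.034 that rose to 0.11 with single libraries left out and was lost in 7 of those cases. Among well-expressed lectins, the neighbours clec-62 and clec-63 on chromosome II rose together: clec-63 had 1259, 1235, 1211, 1511 and 1425 CPM against 824 to 1150 CPM (median 1024) (log2 fold change 0.40 ± 0.07, adjusted p = 0.0015), and clec-62 changed by 0.40 ± 0.08 on the same scale (adjusted p = 0.0036). Of 20 saposin-like spp genes 1 rose, spp-18 (adjusted p = 0.033, lost without any of 6 single libraries, up to 0.14). Against wild type alone 0 spp genes rose, and against ACP7-7A OE alone 10 did. The same 2 comparisons gave 231 and 752 higher genes among all 15723 tested.

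**Figure D3:**
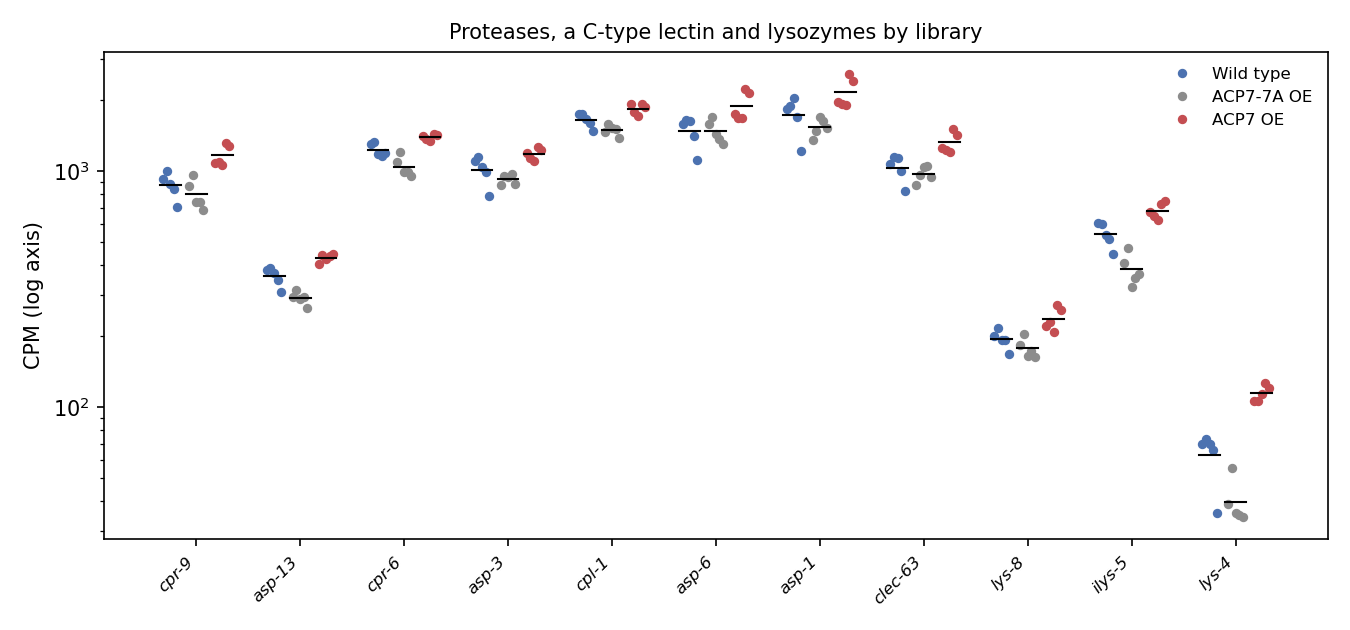
CPM (log axis) of 7 proteases, the lectin clec-63 and 3 lysozymes in each library. Points are the 5 libraries of each group and lines are group means. lys-4 shows the widest gap, with 106 to 127 CPM in ACP7 OE and at most 73.2 CPM in a control.

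Heat shock genes that passed did so at low levels. Of 9 tested cytosolic heat shock genes 3 rose, 0 fell and 6 did not pass, against 1.66% of all genes higher, with a median log2 fold change of 0.68. None of the 3 passed the test against both control groups. hsp-16.2 encodes a small chaperone that is a common stress reporter in the worm. It had 1.9, 2.95, 3.69, 2.14 and 2.2 CPM in ACP7 OE and 0.207 to 1.38 CPM (median 0.675) in the controls (log2 fold change 1.79 ± 0.35, adjusted p = 0.0037), and no control reached the lowest ACP7 OE value. Its neighbour hsp-16.41 on chromosome V changed by 1.11 ± 0.26 (adjusted p = 0.015), a call lost without ACP7 OE library 2 or 3 (adjusted p = 0.065 and 0.060). hsp-70, an inducible chaperone gene, had 5.39, 9.3, 7.49, 7.5 and 6.47 CPM against 1.93 to 5.16 CPM (median 3.77) (log2 fold change 0.99 ± 0.19, adjusted p = 0.0034), also without overlap. It overlaps uggt-2 on the other strand. Of 20 genes of the unfolded protein response of the endoplasmic reticulum only dnj-27 passed, in the lower direction, a call lost without any of 3 single libraries (adjusted p up to 0.069), and of 10 mitochondrial chaperones and proteases none passed. Without the 3 libraries that stood apart, 5 of the 20 and 1 of the 10 fell.

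Other moderate risers had few named relatives. math-38, a gene with a MATH domain, had 2.98, 1.99, 2.75, 3.34 and 5.0 CPM in ACP7 OE and 0.566 to 1.35 CPM (median 0.932) in the controls (log2 fold change 1.71 ± 0.23, adjusted p = 3.6e-05), and was the only one of 87 tested MATH and BTB genes to pass (1 of 89 rose and 1 fell without the 3 libraries). skr-4, an Skp1-related gene of the list on pathogen response, had 18.4, 21.9, 20.8, 23.9 and 24 CPM, 11, 10.4, 10.5, 13.2 and 11.6 CPM with the dead form and 18, 16.54, 17.5, 17 and 12.9 CPM in wild type, a graded order with wild type in the middle (log2 fold change 0.66 ± 0.13, adjusted p = 0.0049). The neighbours Y37H2A.13 and Y37H2A.14 on chromosome V (18142849 to 18144720) rose together. Y37H2A.14 had 16, 22, 23.2, 25.8 and 24.1 CPM against 3.25 to 11.9 CPM (median 9.86) (log2 fold change 1.23 ± 0.19, adjusted p = 0.00057), and Y37H2A.13 changed by 0.97 ± 0.17 (adjusted p = 0.00083). hach-1, a hydrolase of the valine and propionate pathways, had 393, 369, 364, 382 and 377 CPM against 269.5 to 354 CPM (median 306), with a log2 fold change of only 0.29 ± 0.06 (adjusted p = 0.0078) but no overlap.

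Of the genes that fell, the largest change was that of C38D9.2, on chromosome V (17567150 to 17571739, plus strand). Its levels were 9.73, 9.97, 9.85, 10.6 and 9.22 CPM in ACP7 OE, 39.7, 35.8, 36.4, 41.9 and 34.1 CPM with the dead form and 139, 143, 148, 144 and 190.2 CPM in wild type. The 3 groups formed separate bands, and ACP7-7A OE was itself far below wild type. Against the pool the fall was 9.63-fold (log2 fold change -3.27 ± 0.57, adjusted p = 0.0051). C38D9.13, the next tested gene, had 0.842, 1.06, 0.776, 1.93 and 1.55 CPM against 1.83 to 7.42 CPM (median 3.85) in the controls (log2 fold change -1.76 ± 0.37, adjusted p = 0.0091), again with wild type highest. The pooled test counts the gap between the control groups as spread, which widens the error for both genes.

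A stretch of chromosome V between 2351676 and 2494791 held 6 of the genes that fell. F56A4.3 (2453414 to 2456147) had 5.39, 8.5, 6.88, 5.4 and 7.54 CPM in ACP7 OE and 26.6 to 49.1 CPM (median 43.9) in the controls, a fall of 6.09-fold (log2 fold change -2.61 ± 0.16, adjusted p = 1.6e-09). irld-35, which encodes a protein with receptor L domains like those of the insulin and EGF receptors, lies beside it and had 0.107, 0.436, 0.252, 0.728 and 0.774 CPM against 1.23 to 3.35 CPM (median 2.35) (log2 fold change -2.34 ± 0.37, adjusted p = 0.00028). Neither gene overlapped between the groups. F56A4.2 and clec-209 had close to equal values, 2.81, 3.2, 3.49, 4.67 and 3.55 CPM and 2.47, 3.34, 3.16, 4.26 and 3.92 CPM in ACP7 OE, and changed by -1.40 ± 0.13 and -1.45 ± 0.14 on the log2 scale (adjusted p = 2.2e-07 and 2.2e-07). Whether that pair shares reads was not examined. mct-1 and mct-2, named for monocarboxylate transporters, changed by -1.45 ± 0.32 and -1.05 ± 0.23 (adjusted p = 0.0099 and 0.0088). Whether the mct pair shares reads was not examined either, so the 6 falls may not be independent. In all, 24 of the 210 lower genes lay in 11 runs of neighbours, and the plot of lower genes shows the members of this stretch in every library.

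F15D4.5 and F15D4.6 on chromosome II (13245376 to 13250063) were another pair. F15D4.5 had 5.84, 5.23, 6.98, 6.66 and 5.59 CPM in ACP7 OE and 18.4 to 32 CPM (median 23.4) in the controls, a fall of 3.95-fold (log2 fold change -1.98 ± 0.14, adjusted p = 3.1e-09). F15D4.6 changed by -1.30 ± 0.17 (adjusted p = 2.7e-05), and neither gene overlapped. On the X chromosome, T22B7.7 had 6.2, 12.4, 10.5, 13.3 and 12.2 CPM against 18 to 48.2 CPM (median 35.4) (log2 fold change -1.64 ± 0.28, adjusted p = 0.0035). dhs-26, a short-chain dehydrogenase gene, had 1.18, 1.16, 0.466, 2.163 and 1.3 CPM against 3.04 to 10 CPM (median 3.82) (log2 fold change -1.89 ± 0.34, adjusted p = 0.0021) and overlaps ZK816.1 on the other strand. In both X genes wild-type library 5 was the highest of its group.

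**Figure D4:**
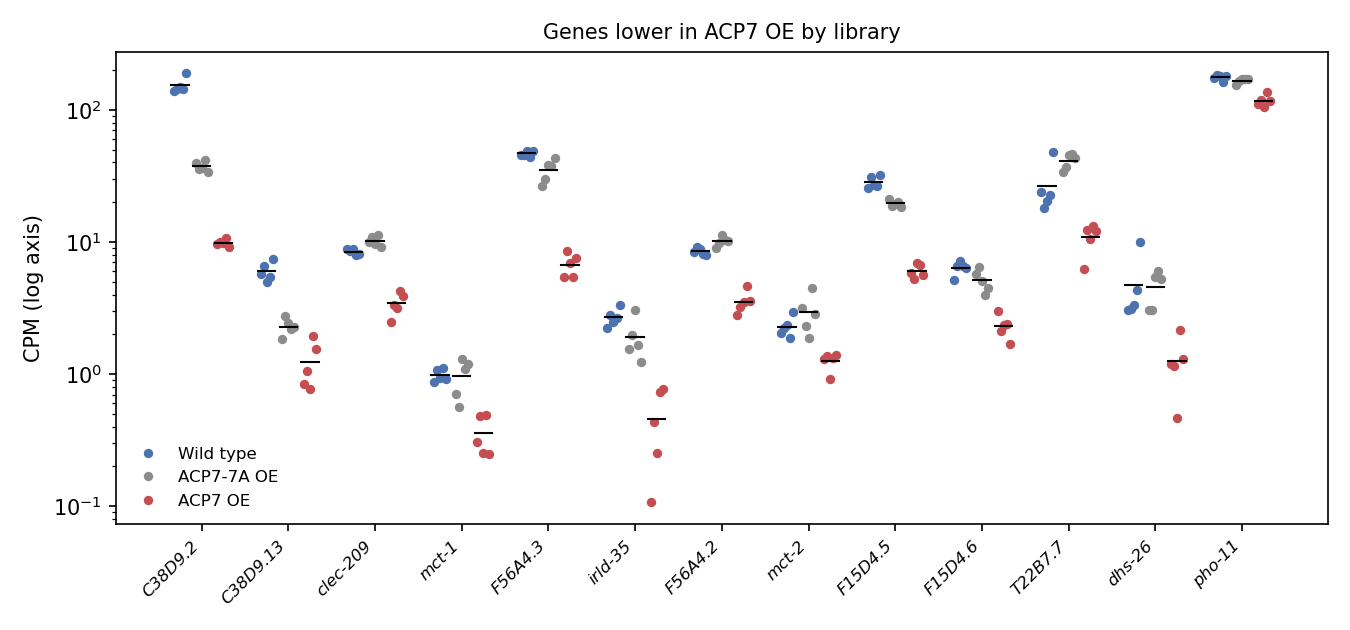
CPM (log axis) of 13 genes that were lower in ACP7 OE, by library. Points are the 5 libraries of each group and lines are group means. C38D9.2 forms 3 separate bands, at 139 to 190 CPM in wild type, 34.1 to 41.9 CPM in ACP7-7A OE and 9.22 to 10.6 CPM in ACP7 OE.

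Acid phosphatase genes of the histidine family, a class apart from the purple acid phosphatases, gave 2 lower members of 11 tested. The lower share of all genes tested was 1.34%. pho-11 (chromosome II, 9931849 to 9934431) had 109.9, 118, 105, 137.2 and 117 CPM in ACP7 OE, 153, 166, 170.1, 171 and 171 CPM with the dead form and 175, 183, 179.8, 163 and 179 CPM in wild type. The control groups overlapped each other and lay wholly above ACP7 OE, and the fall was 1.46-fold (log2 fold change -0.54 ± 0.06, adjusted p = 1.4e-06). It overlaps C05C10.3 on the other strand. pho-14 changed less, by -0.35 ± 0.08 with overlap (adjusted p = 0.014), and missed the threshold when ACP7 OE library 3 was left out (adjusted p = 0.075). Of 11 tested transporters of phosphate and nucleosides none passed.

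The protein genes of the mitochondrial DNA encode subunits of the respiratory chain and of ATP synthase. Of 12 tested 6 fell, 0 rose and 6 did not pass, against 1.34% of all genes lower, with a median log2 fold change of -0.28. All of the 6 also differed from both control groups. With 3 group means, and with DESeq2, 7 fell and 1 rose, and without the 3 libraries that stood apart 8 fell. ATP6, a subunit of the ATP synthase, had 1432, 1543, 1455, 1546 and 1368 CPM in ACP7 OE and 1939 to 2455 CPM (median 2113) in the controls (log2 fold change -0.57 ± 0.06, adjusted p = 1.6e-06). ND2, of complex I, had 163, 171, 183, 222 and 171 CPM against 232 to 305 CPM (median 266) (log2 fold change -0.55 ± 0.07, adjusted p = 1.2e-05). No control library reached down to ACP7 OE for either gene. ND1, COX3, ND4 and COX1 changed by -0.51 ± 0.07, -0.51 ± 0.08, -0.35 ± 0.06 and -0.36 ± 0.07, and of these only COX1 overlapped, with wild-type library 5 at 3500 CPM. ND4 was named to complete the count. CYTB, outside the naming rule as well, lay on the other side of 0 and did not pass. Mitochondrial genes took 1.16% to 1.28% of the counts in ACP7 OE, 1.33% to 1.52% in ACP7-7A OE and 1.32% to 1.72% in wild type. RNA was captured on poly-T beads, and the part of capture in these values was not tested. Fewer mitochondria and less RNA per mitochondrion cannot be told apart.

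Basement membranes are sheets of laminin and type IV collagen that line the gut, muscle, gonad and skin. Of 26 tested genes for their components and receptors 7 fell, 0 rose and 19 did not pass, against 1.34% of all genes lower, and 25 of the 26 had a negative log2 fold change, with a median of -0.27. lam-1, the laminin beta chain gene (chromosome IV, 5173332 to 5183746), had 119.2, 115.4, 106, 122 and 120.0 CPM in ACP7 OE and 131 to 168 CPM (median 152) in the controls (log2 fold change -0.36 ± 0.06, adjusted p = 0.00051). lam-2, the gamma chain gene on X, had 79.2, 69.9, 77.3, 79.6 and 85.9 CPM against 87.4 to 111 CPM (median 103) (log2 fold change -0.37 ± 0.06, adjusted p = 0.00064). Both laminin genes were lower in all 5 ACP7 OE libraries than in all controls, and they were the only members to differ from both control groups. The laminin alpha gene epi-1, the dystroglycan gene dgn-1, the spondin gene spon-1, the integrin gene pat-2 and the collagen gene let-2 also fell, with log2 fold changes between -0.54 and -0.30. Of these, epi-1, pat-2 and let-2 were named to complete the count.

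The basement membrane count moved with single libraries, to 4 without ACP7 OE library 2, 3 or 4 and to 10 without ACP7-7A OE library 1, and it was 16 of 26 without the 3 libraries that stood apart. Of 22 body wall muscle genes 1 fell, unc-89, a giant protein of the contractile lattice (log2 fold change -0.63 ± 0.15, adjusted p = 0.029, lost without any of 4 single libraries, up to 0.12), and 21 had negative log2 fold changes. Without the 3 libraries 20 of the 22 fell, a count that carries no test because low muscle counts helped set those libraries apart. The muscle markers summed to 4938 to 6260 CPM in ACP7 OE, to 6485 to 6903 CPM in wild-type libraries 1 to 4 and 7436 to 7923 CPM in ACP7-7A OE libraries 3 to 5, but to 4868, 4604 and 5357 CPM in wild-type library 5 and ACP7-7A OE libraries 1 and 2. The 3 libraries thus lay with ACP7 OE, not with their own groups, in muscle RNA. Cuticle collagens likewise went from 1 lower of 143, col-158, to 28 of 150 without them, with 1 higher. Less muscle or epidermal tissue and less RNA per cell cannot be told apart, and the part of tissue proportions in the laminin values was not tested.

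**Figure D5:**
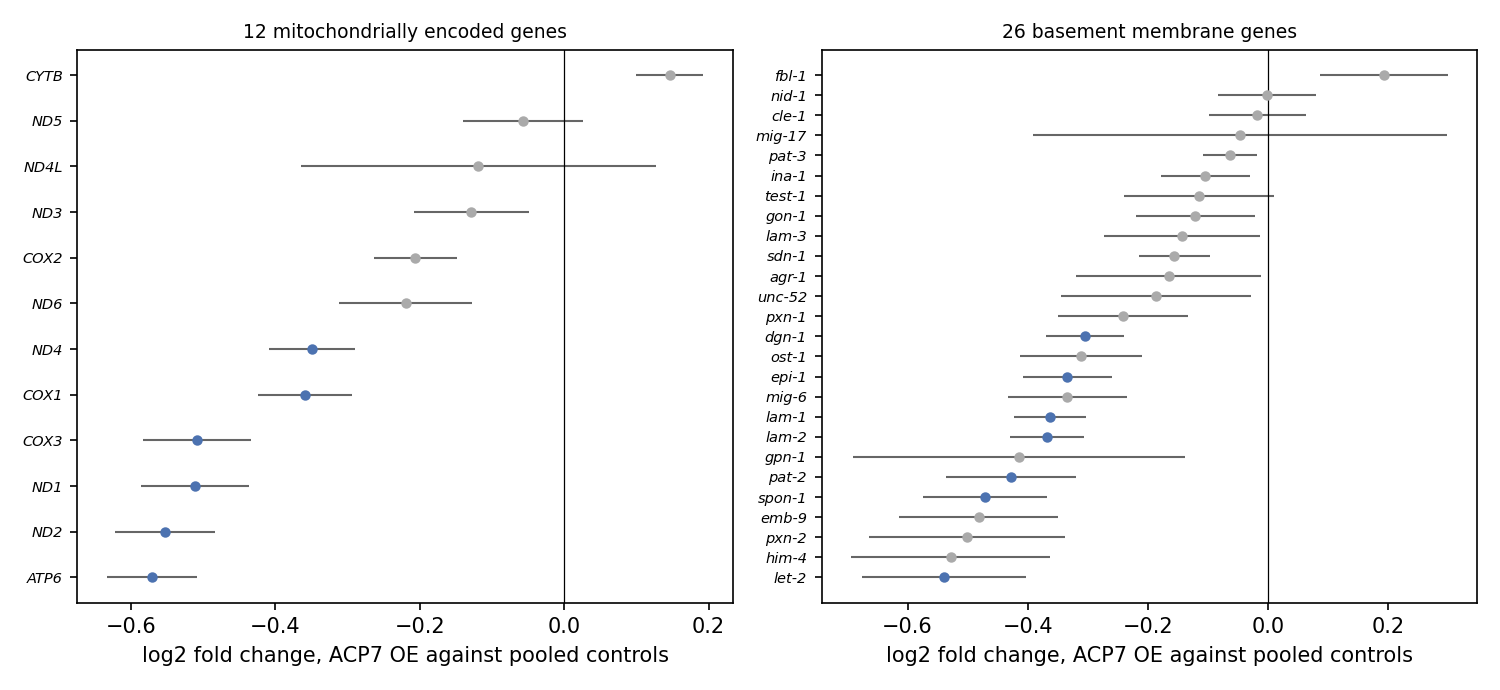
Log2 fold change of ACP7 OE against the pooled controls with its SE (bars) for 12 mitochondrially encoded genes and 26 basement membrane genes. Blue points passed the test and grey points did not; 6 mitochondrial and 7 basement membrane genes are blue, all on the lower side.

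Of the 210 lower genes 64 lay on the X chromosome, which is 2.86% of the 2239 X genes tested, against 0.917% to 1.26% on each other nuclear chromosome. The median log2 fold change of X genes was -0.10 and that of each autosome between -0.01 and 0.01. The X count fell to 33, 31 and 35 without ACP7 OE library 2, 3 or 4, rose to 99 without ACP7 OE library 1, and was 272 of 2306 without the 3 libraries that stood apart, where each autosome had 105 to 183 lower genes. In that setting 963 of all 16254 genes tested were lower. Low muscle counts helped set those libraries apart, so the X count without them carries no test. Many genes of muscle, neurons and other somatic tissues lie on X in the worm, and germline genes are rare there. Germline and oocyte markers summed to 18330 to 21340 CPM in ACP7 OE, 18920 to 23790 CPM in ACP7-7A OE and 16970 to 20580 CPM in wild type, and none of 35 passed, or 2 higher without the 3 libraries. The part of the germline share in the X genes was not tested.

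Metabolic lists held few calls. Of 20 genes of fatty acid synthesis and desaturation 1 rose and 1 fell. fat-2, a desaturase, had a log2 fold change of 0.22 ± 0.06 and fasn-1, fatty acid synthase, of -0.21 ± 0.05 (adjusted p = 0.036 and 0.036), and they were lost without any of 7 and 4 single libraries (adjusted p up to 0.14 each). Of 18 one-carbon and propionate genes, hach-1 rose, and pccb-1 and pcca-1, the subunits of propionyl-CoA carboxylase, fell by 0.23 and 0.22 on the log2 scale, each lost without any of 4 single libraries (adjusted p up to 0.15 and 0.14). Of 61 cytochrome P450 genes cyp-43A1 rose and cyp-13A2 fell, close to the shares of all genes (1.66% and 1.34%), and both calls were lost without 4 and 1 single libraries (adjusted p up to 0.11 and 0.085). Of 43 histone genes his-61 rose and hil-3 and his-24 fell, hil-3 being lost without any of 2 single libraries (adjusted p up to 0.071). Without the 3 libraries that stood apart, 3 of the 20 fatty acid genes rose and 1 fell, 2 of the 18 one-carbon and propionate genes rose and 4 fell, and 2 of 63 P450 genes rose and 5 fell. In the same setting 2 of 45 histone genes rose and 3 fell. With all libraries, fbxc-51 was the only one of 284 F-box genes to pass, and 1 rose and 2 of 296 fell without the 3 libraries. It had 19.2, 18.5, 18.5, 19.5 and 19.1 CPM in ACP7 OE and 22.3 to 31.8 CPM (median 27.7) in the controls, without overlap (log2 fold change -0.53 ± 0.08, adjusted p = 0.00013).

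In the other lists no member passed with all 15 libraries. These were 6 vitellogenin genes, 15 DAF-16 targets, 11 immune genes that depend on the p38 kinase, 37 glutathione S-transferases, 62 genes of fatty acid breakdown, 20 V-ATPase subunits, 23 lysosomal lipases and membrane proteins, 78 ribosomal proteins, 100 neuropeptides, 195 nuclear receptors, 50 transthyretin-like and 40 hedgehog-related genes, and 26 eggshell genes. The same held for markers of neurons (24), pharynx (13), hypodermis (12) and early embryos (12). Medians of these lists lay between -0.30 and 0.06 on the log2 scale. Many of these lists held calls once the 3 libraries that stood apart were left out. The lower genes then numbered 13 of 102 neuropeptides, 7 of 52 transthyretin-like genes, 6 of 13 pharynx markers, 4 of 20 V-ATPase subunits, 3 of 15 DAF-16 targets and 3 of 38 glutathione S-transferases. Of 24 neuron markers 5 fell and 1 rose, of 201 nuclear receptors 8 fell and 1 rose, and of 78 ribosomal protein genes 2 fell and 2 rose. Of 6 vitellogenin genes 2 rose, and of 26 eggshell genes 3 rose. Among fatty acid breakdown and hedgehog-related genes 2 each fell, and 1 each among lysosomal lipases and membrane proteins and the p38-dependent genes. In that setting 963 of all 16254 genes tested were lower and 516 higher. The lower shares of nuclear receptors and ribosomal protein genes were below that of all genes. A difference that did not pass is not shown to be absent.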

How the data were processed

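Poly(A) RNA of whole worms was sequenced as read pairs of 150 nucleotides in 15 libraries. The authors deposited raw counts per gene, whole numbers without normalization, for 46929 genes. Per the file headers the counter was featureCounts 2.0.6. The submitters' processing notes name STAR, Trim Galore and WBcel235. How strand, multiple alignments and mates were handled is not given in the sources used here. Even numbers made up 81.3% to 86.1% of each library's values between 5 and 39. Symbols came from RefSeq (46925 identifiers matched) and Ensembl 115.

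Differences were tested here with edgeR 4.0.16 in R 4.3.3 (quasi-likelihood F test, robust fit, TMM scaling, filterByExpr on the 3 groups, Benjamini-Hochberg adjusted p under 0.05). F21A3.11 and WormScarlet were left out of the genes tested. The main fit set 5 libraries against 10 with no covariate. The test beyond both control groups took the larger p of ACP7 OE against wild type and against ACP7-7A OE in a 3-group fit, where both had the same sign. These comparisons share the ACP7 OE libraries. CPM are TMM-scaled, and SE are those implied by the F test. Exact 95% intervals and floors of 3 counts cover counting error only. The procedure was tested on simulated data in which the control groups had equal means and only well-expressed genes were changed. Genes near 0 and gaps between the control groups were therefore not covered.

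The members, the 45 gene lists and the rule for naming genes were chosen with earlier results of these data known. Named genes are ges-1 and unc-54, the 10 highest and the 10 lowest genes by log2 fold change that passed, did not overlap and averaged 1 or more in log2 CPM, the 10 largest differences in CPM, up to 4 members per list by p (2 where none passed), and called neighbours of these. A gene outside this rule is marked in the text. Alternatives were another fit, DESeq2 1.42.0, other scaling and filters, halved counts, a replicate block and libraries left out.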

Additional observations from a re-analysis of the deposited data

Results flagged for a closer look

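Single libraries that lay far from the other 4 of their group were looked for in the genes described, with a gap over range above 0.71 as the limit. Of 198 groups of values 23 gave such a library, and chance gives about 1 in 20. Wild-type library 5 accounted for 9 of them. It was lower than the other wild-type libraries for lys-4 (35.8 CPM, others 66.0 to 73.2), skr-4 (12.9 CPM, others 16.54 to 18), ND1 (423 CPM, others 478 to 495) and Y37H2A.14 (3.25 CPM, others 9.62 to 11.1). It was higher for C38D9.2 (190.2 CPM, others 139 to 148), dhs-26 (10.01 CPM, others 3.06 to 4.33) and T22B7.7 (48.2 CPM, others 17.96 to 23.8).

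Genes near 0 in the controls gave others, each from a handful of counts. F59B2.12 stood at 0.197 CPM in wild-type library 5 and 0.364 CPM in ACP7-7A OE library 5, clec-197 at 0.283 CPM in ACP7-7A OE library 5, and Y51A2D.8 at 0.620 CPM in ACP7-7A OE library 4. clec-94 had 0.0229 CPM in ACP7-7A OE library 1 and 0 in the other 4. clec-95 had 0.0482 CPM in wild-type library 2 and 0.0459 CPM in ACP7-7A OE library 1. clec-207 had 0.0503 CPM in wild-type library 4, clec-208 0.0493 CPM in wild-type library 5 and 0.0404 CPM in ACP7-7A OE library 5, and ins-31 0.101 CPM in wild-type library 4.

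The remaining ones were lys-4 in ACP7-7A OE library 2 (55.4 CPM, others 34.3 to 38.9), mct-2 in ACP7 OE library 3 (0.912 CPM, others 1.29 to 1.40), pho-11 in ACP7-7A OE library 1 (153 CPM, others 166 to 171), pho-14 in ACP7-7A OE library 3 (46.8 CPM, others 53.5 to 55.5) and unc-54 in ACP7 OE library 1 (1445 CPM, others 908 to 1031).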

How the results depend on the processing

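The count of 471 genes became 797 (450 higher, 347 lower) with 3 group means and a contrast to the mean of both control groups, and 816 (435 and 381) with DESeq2. A filter of 50 counts in 5 libraries gave 154 higher genes, 107 beyond both control groups and 52 of these higher, with fewer genes tested. Without wild-type library 5 and ACP7-7A OE libraries 1 and 2 there were 1479 (516 and 963), and 592 beyond both groups (193 and 399). With single libraries left out, the totals ran from 302 to 572, the higher from 172 to 331 and the lower from 102 to 290, and those beyond both groups from 151 to 214, from 103 to 143 and from 40 to 87. Higher genes made up 55.4% of the calls, 44.4% under the stricter filter and 34.9% without the 3 libraries. The cause of these shifts was not tested beyond the smaller number of genes or libraries. Other scaling, no filter and halved counts moved none of these totals by over 1.5 times, but moved some list counts: spermatogenesis genes from 2 to 4 higher with halved counts, saposin-like genes from 1 to 2 with RLE size factors, and with no filter P450 genes to 0 higher and 2 lower and intestine markers and body wall muscle genes to 0 called.

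Of the 88 named genes that passed, 57 did so under all 24 alternatives and 31 were lost under at least 1, and no named gene of 132 reversed. Of the 124 genes with a log2 fold change of at least 2, between 116 and 124 passed with any single library left out. With halved counts 87 of the 124 were still tested, and all 87 passed. The 124 were chosen for passing with these same libraries, so counts of how many pass again describe the set and do not test it. The replicate numbers did not pair the libraries: of 15 pairs of same-numbered libraries across groups the correlations of deviations ran from -0.386 to 0.198, and 3 were over 0.1. A replicate block gave 371 genes (230 higher, 141 lower) and 155 beyond both groups (111 and 44), proteases with 4 of 25 higher and 120 of the 124. The depth limits genes under 1 CPM most, and the counts of several genes near 0 rest on single read pairs.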
